A study of Mus musculus with 12 samples.

Results

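On a mouse expression array with 25697 probes, 174 probes gave no detectable signal in blood progenitor cultures with growth factors only and a detectable signal in every culture that received valproic acid, with or without lithium. A probe entered the set when its detection p-value, the deposited measure of whether a probe exceeds the array's negative controls, was under 0.05 on all 3 valproic acid arrays and all 3 arrays of both agents, and 0.05 or more on all 3 growth factor arrays. The 174 probes carry 168 of the array's 18097 deposited gene names, and 171 of the probes matched 164 current mouse genes. Detection on these 9 arrays chose the probes, so their contrast with growth factors only is described without a test. The 3 lithium arrays took no part in the choice.

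The cells were lineage-negative, Sca-1-positive, Kit-positive bone marrow stem and progenitor cells of C57Bl/6 mice. All 4 groups of 3 cultures were differentiated for 7 days in fetal calf serum with murine stem cell factor (SCF) and GM-CSF, a cytokine that drives granulocyte and macrophage growth. The first group received these growth factors only, the second also 5 mM lithium chloride, the third 1 mM valproic acid, and the fourth both agents at these doses. The submitters describe the triplicates as independent biological samples. The labels state the cells at the start of culture, and the cells on day 7 were a mixture in which fewer cells of a type and less RNA per cell cannot be told apart.

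Valproic acid inhibits histone deacetylases, enzymes that remove acetyl groups from histone tails, and acetylated histones accompany active promoters. Lithium inhibits glycogen synthase kinase 3, a kinase that marks beta-catenin for destruction in the Wnt pathway and also acts on many other proteins. A gene silent in one cell type can become transcribed when deacetylases are blocked, and deacetylase inhibitors are known to slow the differentiation of cultured hematopoietic stem cells.

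Technical sets cut across the treatment groups. In 9800 probes that no array detected, pairs among 8 arrays had correlations of 0.485 to 0.569, whereas all remaining pairs were between 0.121 and 0.209. Replicate 1 of growth factors only, replicate 1 of valproic acid and replicates 2 and 3 of both agents formed the smaller set of 4, and every lithium array was in the larger set. Between 42.3% and 46.8% of all probes were detected per array, and median raw intensity ran from 96.3 to 142. Growth factors only replicate 1 decided much of the membership: without it 400 probes met the rule, against 181 to 213 without any other single array used by it. Within the larger set alone 521 probes met the rule, and within the smaller set 624. Fewer arrays had to meet the rule in each, and the part of this in the counts was not tested.

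Levels below are log2 intensities after background correction and quantile normalization. The median probe of the set stood at 4.92 with growth factors only, 5.17 with lithium alone, 6.18 with valproic acid and 6.50 with both agents, where the median of all 12907 tested probes was 7.50 to 7.51 in every group. The set therefore held mostly dim probes. On single arrays the set's median was 4.84 to 4.91 with growth factors only, 5.09 to 5.22 with lithium, 6.08 to 6.44 with valproic acid and 6.36 to 6.68 with both. In 168 of the 174 probes, all growth factor arrays lay below all 6 arrays with valproic acid. The detection rule largely sets this separation, and its share over all tested probes was not counted. The exceptions included Klf1, Efnb1, Aars2 and Elac2, whose ranges touched.

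**Figure D1:**
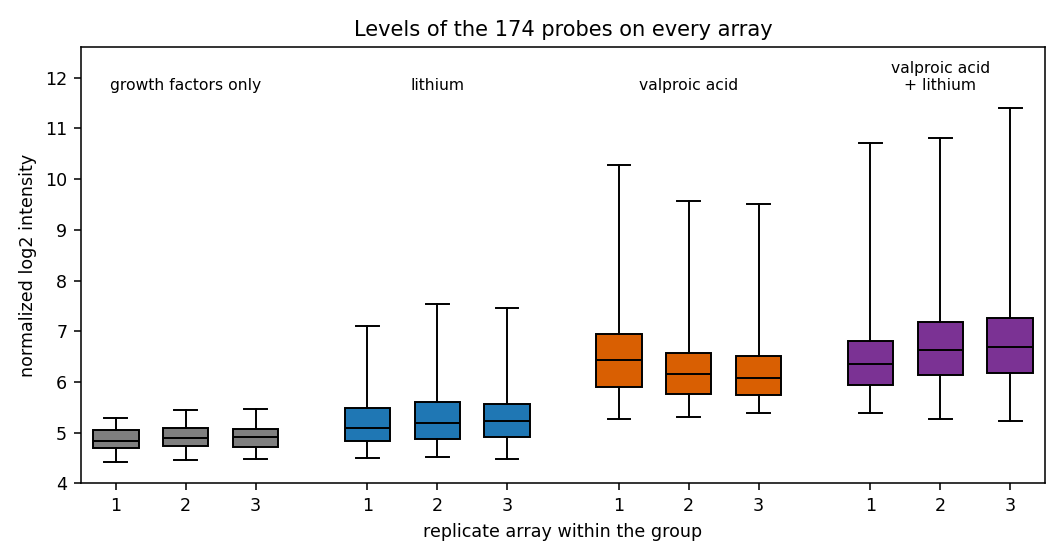
Normalized log2 intensity (vertical axis) of the 174 probes on each of the 12 arrays, grouped by treatment. Boxes span the quartiles with the median as a line, and whiskers reach the lowest and highest probe; medians were 4.84 to 4.91 with growth factors only, 5.09 to 5.22 with lithium, 6.08 to 6.44 with valproic acid and 6.36 to 6.68 with both agents.

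A fold against an undetected group is a lower bound here, set against the lowest detected signal of each growth factor array (log2 5.29 to 5.49) or the probe's own value where that was higher. By this bound the median probe was at least 1.72-fold higher with valproic acid, and 62 probes were at least 2-fold, 10 at least 4-fold and 3 at least 8-fold higher. With both agents the median was at least 2.15-fold, and 97 probes were at least 2-fold, 26 at least 4-fold and 7 at least 8-fold higher. These bounds hold only for the background correction used: the members' median log2 difference with valproic acid was 1.27 here, 0.75 with a larger offset of 50 and 0.49 in the authors' deposited log2 values. The detection limit itself cuts through a continuum. Just inside it, Ubxn11, Bcl11a and Aars2 had a lowest growth factor detection p of 0.0501. Just outside, Afap1l1 had 0.0489 on growth factors only replicate 1, and Rab3ip and Chchd2 had 0.0501 on 1 array with valproic acid. Their levels resembled those of members: Afap1l1 averaged 5.09 in the growth factor group and 6.13 under valproic acid.

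Switching on describes these probes and not every gene behind them. The array carries 131 further probes for 74 of the genes, and 33 of those probes, for 23 genes, were detected on all 3 growth factor arrays. For Gnl3, which encodes the nucleolar protein nucleostemin, another probe already averaged 10.69 with growth factors only. Other probes of Ptbp1 (11.02), a splicing regulator, of Xrcc6 (10.07), the Ku70 subunit of DNA end joining, and of Mybbp1a (9.83), a nucleolar partner of Myb, were likewise bright. For such genes the chosen probe read a signal near the detection limit, and the gene was expressed throughout. Of the 131 further probes, 59 were detected on no growth factor array and 30 on no array at all.

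Some further probes showed the same order of groups from a detectable start. A second probe of Them6 went from 8.68 with growth factors only to 11.56 under valproic acid, and one of Stard10, a lipid transfer protein, from 6.83 to 9.49. The genes were chosen on these arrays and in this contrast, so that these values are given as a description with no test and are no independent replication.

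The highest levels in the set belonged to Hba-a1, adult alpha globin. It measured 4.43, 4.58 and 4.69 with growth factors only, 6.90, 7.36 and 7.45 with lithium alone, 10.28, 9.56 and 8.27 with valproic acid, and 10.71, 10.81 and 11.40 with both. The groups did not overlap, and each treated group stood above the one before. The bounds over growth factors only were at least 3.55-fold with lithium, 15.6-fold with valproic acid and 47.4-fold with both. Mouse alpha globin has near-identical gene copies, and the probe's own sequence was not used here, so the signal may come from more than 1 copy.

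Klk8 encodes neuropsin, a secreted serine protease best known from brain and skin. It measured 5.12, 4.71 and 4.75 with growth factors only and 5.05, 5.18 and 5.12 with lithium alone, undetected on all 6 arrays. With valproic acid it measured 8.89, 9.25 and 9.21, and with both agents 10.11, 9.58 and 9.48, at least 13.1-fold and 19.9-fold above growth factors only. Lithium alone thus left it undetected and all 3 valproic acid arrays lay far above it.

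Vat1l, a relative of the synaptic vesicle protein VAT-1, measured 4.87, 5.00 and 4.97 with growth factors only and 6.59, 7.54 and 7.27 with lithium alone. It reached 8.17, 9.34 and 9.51 with valproic acid and 10.55, 9.15 and 9.13 with both agents. Here lithium alone gave at least 3.31-fold and valproic acid at least 12.1-fold, and the arrays with valproic acid overlapped with those of both agents.

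Gpc3, glypican-3, is a heparan sulfate proteoglycan of the cell surface that modulates growth factor signalling in the embryo. It was read by 2 probes of the set. The brighter one measured 4.81, 4.59 and 4.58 with growth factors only, 4.84, 4.88 and 4.56 with lithium alone, 8.25, 7.86 and 7.70 with valproic acid and 8.85, 8.91 and 8.82 with both agents. The second averaged 4.75, 4.65, 7.18 and 8.33 in the same order. Both probes of Gpc3 were silent in every culture without valproic acid.

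Kcnk5, a potassium channel of the background type, averaged 4.77 ± 0.38 (SD, n = 3) with growth factors only and 4.82 ± 0.12 with lithium. It averaged 7.69 ± 0.47 with valproic acid and 8.46 ± 0.37 with both agents. Ppm1e, a phosphatase that acts on p21-activated and calcium/calmodulin-dependent kinases, averaged 4.71, 4.60, 7.47 and 8.11 in these groups. B9d1, a protein of the ciliary transition zone, averaged 4.86, 4.76, 7.16 and 7.99. None of these 3 member probes was detected on a lithium array. A further Kcnk5 probe outside the set was detected on 2 lithium arrays and on no valproic acid array, where it averaged 4.92.

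**Figure D2:**
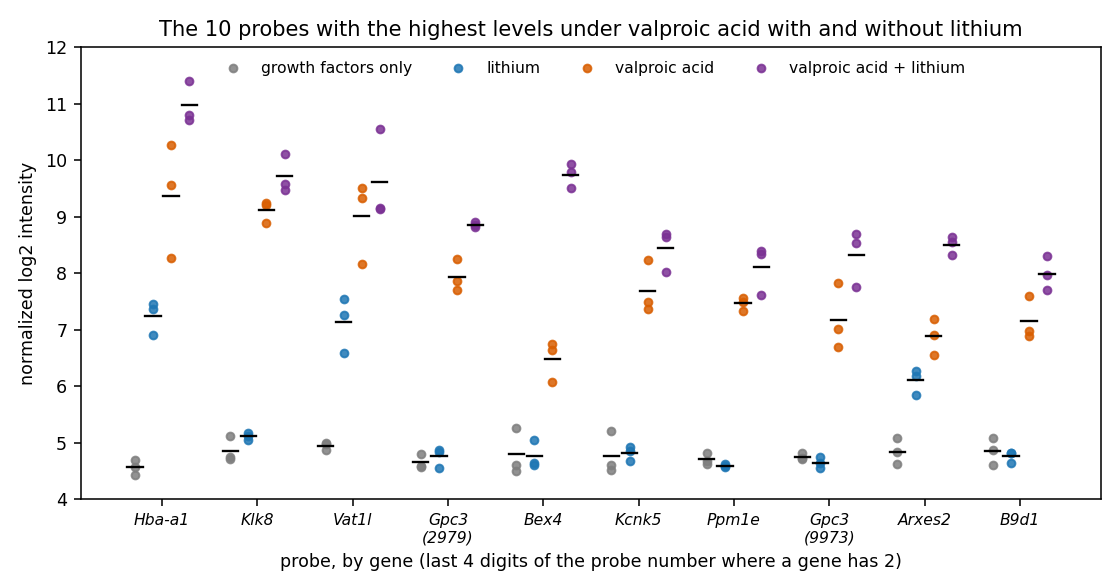
Normalized log2 intensity (vertical axis) of the 10 probes with the highest mean over arrays with valproic acid, each array as a point and each group mean (n = 3) as a bar. Growth factor values of all 10 probes lie between 4.43 and 5.27, and all lithium values of Hba-a1, Vat1l and Arxes2 lie above that range.

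Lithium alone divided the set. Of the 174 probes, 33 (19%) were detected on all 3 lithium arrays, 27 on 2, 28 on 1 and 86 (49.4%) on none. Among all 12646 probes undetected with growth factors only, 0.688% were detected on all 3 lithium arrays, and among the 12472 of them outside the set 0.433% were. Read the other way, 87 probes gained detection with lithium alone, and 33 of them (37.9%) belonged to the set. Single lithium arrays detected 51, 63 and 67 of the 174. Lithium's mean lay above that of growth factors only in 137 probes (78.7%), against 52.9% of all tested probes, and all 3 lithium arrays lay above all 3 growth factor arrays in 72 (41.4%) against a background of 16.3%. These growth factor arrays were chosen for low signal and were not all in the lithium arrays' technical set, so no test was made and the part of either was not tested. At a stricter detection limit of 0.01 only 8 members were detected on all lithium arrays and 135 on none.

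The differences with lithium were mostly small. Over the 33 probes detected on all lithium arrays the bound was at least 1.45-fold at the median, ranging from 1.06 to 3.55, and 5 probes reached 2-fold. Only 7 of the 174 had a higher mean with lithium than with valproic acid: Crip2, Schip1, H1f10, Nsun5, Fancg, Ccdc137 and Zfp593, named after their values were seen. This holds for the member probes and not for every gene. Ccdc137 probes outside the set averaged 7.74 and 6.78 with lithium, and 8.11 and 6.97 with valproic acid. Those of Nsun5 averaged 6.78, 6.62, 5.99 and 6.12 with lithium, and 7.10, 6.93, 6.06 and 6.03 with valproic acid. Other probes of Schip1 (5.42 and 5.00) and H1f10 (4.95 and 4.90) kept the order, the latter undetected with either agent alone. Crip2, a LIM domain protein, measured 4.56, 5.41 and 4.71 with growth factors only, 7.10, 7.33 and 6.96 with lithium alone, 6.79, 6.65 and 6.13 with valproic acid and 6.84, 6.77 and 7.62 with both. Its lithium arrays all lay above its valproic acid arrays. Schip1, a protein that interacts with the schwannomin tumour suppressor, averaged 4.91, 6.69, 6.00 and 6.75, with lithium again above valproic acid in the mean.

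The transcript BC020535 measured 4.61, 4.57 and 4.63 with growth factors only, 6.63, 6.45 and 6.19 with lithium alone, 6.69, 6.72 and 6.55 with valproic acid and 7.66, 7.14 and 7.32 with both. Each agent alone gave at least 2.02-fold and 2.37-fold, and both gave at least 3.90-fold. Serpina3f, a serine protease inhibitor, averaged 4.53, 6.26, 6.35 and 5.77, so that both agents together stood below either one. Its difference between both agents and valproic acid was -0.58 (limma adjusted p 0.238).

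Genes of the nucleolus and ribosomal RNA were detected on all 3 lithium arrays in 4 of 4 probes: Gnl3, Mybbp1a, Nsun5, and Mrm3, a methyltransferase of mitochondrial ribosomal RNA. So were 3 of the 4 probes of DNA repair genes, Xrcc2, Xrcc6 and Fancg. The fourth, Polq, was detected on 2. Probes of Gnl3, Mybbp1a, Nsun5 and Xrcc6 outside the set were already detected on all 3 growth factor arrays, at up to 10.69, 9.83, 6.29 and 10.07. These genes were therefore expressed without lithium. None of the 10 probes of transcription regulators of blood cells was on all 3, where 19% of the set was. These groupings were made after the values were seen and describe the set only.

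**Figure D3:**
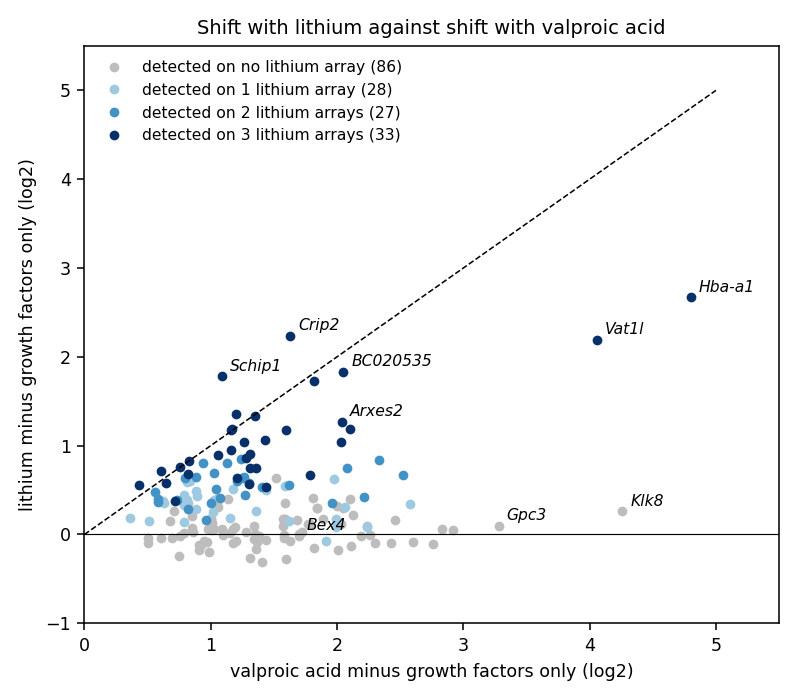
Difference from growth factors only with lithium (vertical axis, log2) against that with valproic acid (horizontal axis, log2) for the 174 probes, coloured by the number of lithium arrays that detected each. The dashed line marks equal differences; 7 probes lie above it, led by Crip2 and Schip1, and Klk8, Gpc3 and Bex4 lie near 0 on the lithium axis. Both axes share the growth factor arrays.

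The comparison of both agents with valproic acid alone is the one that the rule did not set, since both groups had to be detected. Even so, a probe that fell out of detection with both agents could not be a member, which limits how far members can be lower. Of the 174 probes 11 (6.32%) were higher with both agents and none was lower (limma, adjusted p under 0.05 over all 12907 tested probes). The backgrounds were 0.752% higher and 2.15% lower, and 0.612% and 2.11% among the 9483 probes detected on all 6 of these arrays. Without adjustment 67 members were higher and 6 lower at p under 0.05. The median log2 difference of members was 0.36, or 1.28-fold, against 0.02 over all tested probes and 0.04 over the 9483. In 48 members all arrays with both agents lay above all valproic acid arrays, and in 4 all lay below, against backgrounds of 9.02% and 8.65%.

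The technical sets bear on this count. In the set of 4, both agents had 2 arrays and valproic acid 1. In the larger set both agents had 1 array and valproic acid 2. With the set of arrays as a block 43 members were higher and 4 lower (backgrounds 4.95% and 7.02%). Within the larger set alone 11 were higher and 1 lower (0.573% and 1.90%), and within the smaller set 1 was higher (0.0232%). The 11 within the larger set were not the same probes as the 11 found over all arrays. Akap12, H1f10, Lmbr1, Mybbp1a and Rhobtb3 were not among them, and BC020535, Etv4, Hba-a1, Klk8 and Samd14 were. A group of 1 array has no spread of its own, so these counts cannot show whether calls hold within a set. Leaving out single arrays gave 5 to 24 higher members: 24 without replicate 1 of both agents, 22 without valproic acid replicate 1, 5 without replicate 2 or 3 of both agents and 6 without valproic acid replicate 2 or 3.

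The 4 probes at the top of this comparison read 3 neighbouring genes of the X chromosome, Bex4, Bex2 and Arxes2. Bex genes encode small proteins expressed in brain and linked to neurotrophin receptor signalling, and Arxes2 was described as a target of the fat cell regulator PPARgamma. The brighter Bex4 probe measured 5.27, 4.50 and 4.61 with growth factors only, 4.61, 5.05 and 4.64 with lithium alone, 6.65, 6.07 and 6.75 with valproic acid and 9.51, 9.94 and 9.79 with both agents. Lithium alone left it undetected on all arrays, and with valproic acid present the same dose went with a rise of 3.26 ± 0.26 (SE) on the log2 scale, or 9.58-fold (limma adjusted p 2.95e-05). This probe passed the test under all 24 alternatives, with adjusted p up to 0.03.

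The second Bex4 probe averaged 4.84, 4.72, 5.76 and 7.94 in the same order of groups and rose by 2.18 ± 0.20 (adjusted p 5.52e-05, limma). For Bex2 the probe of the set measured 5.02, 4.75 and 5.02 with growth factors only, 5.12, 4.70 and 4.75 with lithium alone, 5.65, 6.03 and 6.03 with valproic acid and 7.77, 7.98 and 8.31 with both. It rose by 2.12 ± 0.21, or 4.34-fold (limma adjusted p 0.000111). A further Bex2 probe, undetected on all growth factor arrays and outside the set because 1 of 3 valproic acid arrays detected it, rose by 1.92 (limma adjusted p 0.000842). The remaining Bex2 probe already stood at 6.52 with growth factors only, so the gene was not silent by every probe.

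Arxes2 differed from the Bex members of the set in that it was detected with lithium alone. It measured 4.62, 4.83 and 5.08 with growth factors only, 5.85, 6.27 and 6.19 with lithium alone, 6.55, 6.90 and 7.20 with valproic acid and 8.33, 8.55 and 8.65 with both, a rise over valproic acid of 1.63 ± 0.22 (limma adjusted p 0.00101). The second Bex4 probe, Bex2 and Arxes2 each passed in 23 of 24 alternatives and missed within the smaller set of arrays, where the 2.08, 2.50 and 2.05 measured there had adjusted p of 0.0502, 0.05 and 0.0502.

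The 3 genes lie in 1 stretch of the X chromosome, which holds 15 protein-coding genes from Gprasp1 to Bex3 in RefSeq order. The stretch was picked out after these values were seen. Its 18 probes for 12 genes comprise the 4 members, 8 other tested probes and 6 that were detected too rarely to test. Of the 8 others, 6 rose with valproic acid over growth factors only and none fell (limma, adjusted p under 0.05). Of all tested probes, 13.2% rose and 11.9% fell. The 6 include a further probe of Bex2. Bhlhb9, an Armcx-like protein also called Gasp3, went from 6.41 to 9.05 (limma adjusted p 8.56e-06), Bex3 from 9.86 to 11.36 (limma adjusted p 0.000198) and Tceal8, of the elongation factor A-like family, from 8.67 to 9.68 (limma adjusted p 0.00393). These neighbours were expressed from the start. With both agents over valproic acid only 1 of the 8 was higher, another Bex2 probe, against 0.752% of all tested probes. Bhlhb9, Bex3 and Tceal8 did not pass there (limma adjusted p 0.113, 0.226 and 0.0685). Others in the same stretch stayed dark: Arxes1, Nxf3 and Tceal5 were undetected on every array with valproic acid, and Bex1 had 2 probes, of which 1 was detected on 2 arrays with both agents (mean 5.32) and the other on none.

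**Figure D4:**
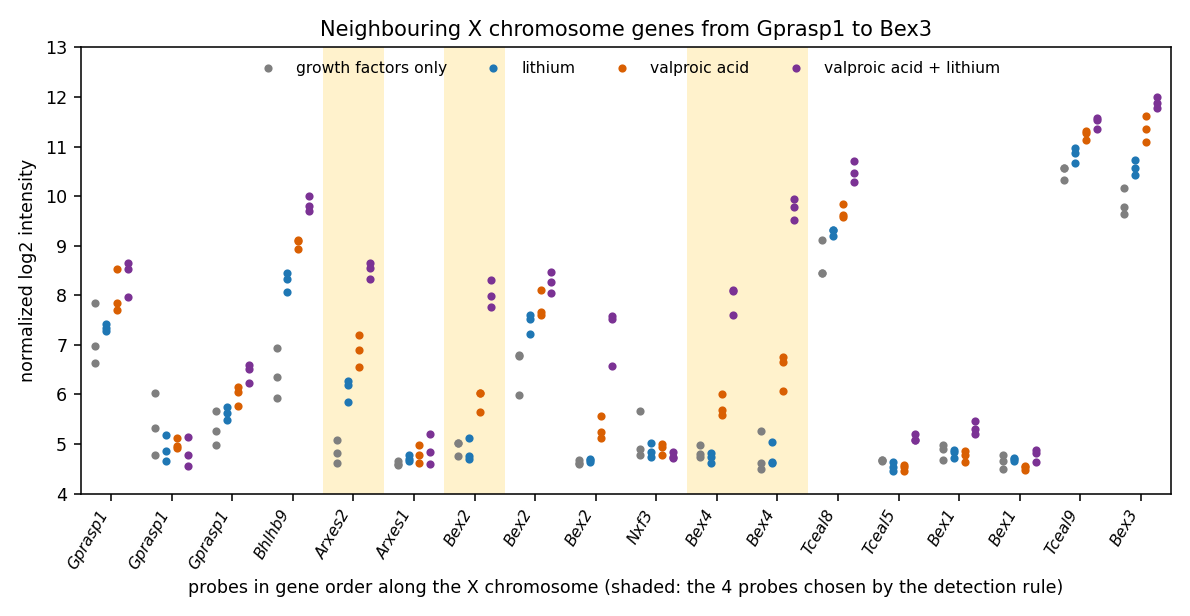
Normalized log2 intensity (vertical axis) of the 18 probes from Gprasp1 to Bex3 in gene order along the X chromosome, each array as a point coloured by treatment. Shaded probes are the 4 members (Arxes2, Bex2 and 2 of Bex4); among unshaded probes Bhlhb9 and Bex3 rise from a detectable level, a further Bex2 probe goes from 4.63 with growth factors only to 7.23 with both agents, and Arxes1, Tceal5 and Bex1 stay near 4.5 to 5.5.

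The promoters of these genes show what can and cannot be read from sequence. The 250 bases before the listed start, 5′ to 3′ on the gene's strand, are given below from RefSeq (GRCm38.p6), with GC boxes (GGGCGG on either strand) in capitals. They are Arxes2 at chrX:135993570-135993819 (+), Bex2 at chrX:136068237-136068486 (-), Bex4 at chrX:136138746-136138995 (+) and the dark neighbour Bex1 at chrX:136215514-136215763 (-).
Arxes2: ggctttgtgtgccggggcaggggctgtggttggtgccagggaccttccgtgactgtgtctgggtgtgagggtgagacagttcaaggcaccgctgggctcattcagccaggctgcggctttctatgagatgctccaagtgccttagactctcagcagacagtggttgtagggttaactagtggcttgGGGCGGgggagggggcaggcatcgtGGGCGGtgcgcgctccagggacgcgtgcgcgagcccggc
Bex2: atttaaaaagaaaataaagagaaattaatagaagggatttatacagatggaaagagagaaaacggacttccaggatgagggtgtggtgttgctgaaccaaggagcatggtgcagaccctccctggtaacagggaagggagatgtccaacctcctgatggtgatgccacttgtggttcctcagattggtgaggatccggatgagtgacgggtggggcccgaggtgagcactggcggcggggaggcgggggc
Bex4: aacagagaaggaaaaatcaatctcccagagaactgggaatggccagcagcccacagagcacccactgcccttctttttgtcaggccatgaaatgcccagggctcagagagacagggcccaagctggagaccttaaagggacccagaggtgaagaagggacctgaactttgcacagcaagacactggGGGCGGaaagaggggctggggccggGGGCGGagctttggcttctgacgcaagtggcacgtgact
Bex1: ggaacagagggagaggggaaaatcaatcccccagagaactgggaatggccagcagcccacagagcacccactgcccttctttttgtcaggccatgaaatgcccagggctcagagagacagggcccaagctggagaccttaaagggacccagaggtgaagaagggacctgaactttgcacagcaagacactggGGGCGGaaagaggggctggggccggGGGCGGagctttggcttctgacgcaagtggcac
Arxes2, Bex4 and Bex1 each hold 2 GC boxes, and Bex2 holds none. Bex2 has a match to the TATA box letters (TATAAA) at bases 38 to 43 of its window, far from the listed start. It also has a match to the CCAAT box (CCAAT) at bases 183 to 187. Both are read on the strand opposite to the printed one. Bex4 also holds an E-box (CACGTG) at bases 242 to 247 of its window, which reaches past the 244 bases shared with the Bex1 window. The Bex4 and Bex1 windows are almost the same sequence: shifted by 6 bases, 238 of 244 bases (97.5%) match, with an unbroken identical run of 221 bases. Yet the Bex4 probes reached 7.94 and 9.75 with both agents, and the Bex1 probes 5.32 and 4.78. Levels of different probes are not strictly comparable, but detection differed: all 3 arrays for both Bex4 probes, and 2 and 0 for the Bex1 probes. Whether probes of Bex4 and Bex1 also bind each other's transcript was not checked here, so that this contrast is one between probes.

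Over the set, 134 genes had a listed promoter. GC boxes stood in 56.7% of these 250-base windows, against 46.7% of 13406 promoters of genes on the array. The median number of CG dinucleotides was 13.5 against 11, and the median GC content 59.6% against 56.8%. The TATA box was in 8.96% against 11.6%, the cyclic AMP response element (CRE, TGACGTCA) in 0.746% against 2.16%, the E-box CACGTG in 7.46% against 7.19% and the CCAAT box in 42.5% against 36.0%, each counted on both strands. A GC box contains a CG and is counted in both measures. Only 1 of the 134 windows held no CG, where 840 of the 13406 had none.

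The other probes higher with both agents came from scattered genes. Rhobtb3 averaged 6.55 with valproic acid and 7.97 with both, a rise of 1.42 ± 0.30 (limma adjusted p 0.0217) that 16 of 24 alternatives kept. Gpc3's brighter probe rose by 0.92 ± 0.19 (limma adjusted p 0.0178, kept by 18), and its second probe differed by 1.15 ± 0.30 without passing (limma adjusted p 0.0611). H1f10, a linker histone, averaged 4.63, 5.99, 5.83 and 6.79 across the 4 groups and was detected on all lithium arrays. It rose over valproic acid by 0.96 ± 0.23 (limma adjusted p 0.0404), in only 7 of 24 alternatives. A second H1f10 probe, outside the set, averaged 4.58, 4.95, 4.90 and 5.36 and was detected only on 2 arrays with both agents. The 3 further calls fell outside the naming rule and are given for completeness: Mybbp1a (0.96 ± 0.20, kept by 17), the kinase anchor Akap12 (1.09 ± 0.26, kept by 7) and Lmbr1 (0.72 ± 0.17, kept by 4). Mybbp1a probes outside the set differed by 0.47 and 0.32 without passing (limma adjusted p 0.458 and 0.763). Hba-a1 had a large difference, 1.61 ± 0.40, with a limma adjusted p of 0.0539.

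**Figure D5:**
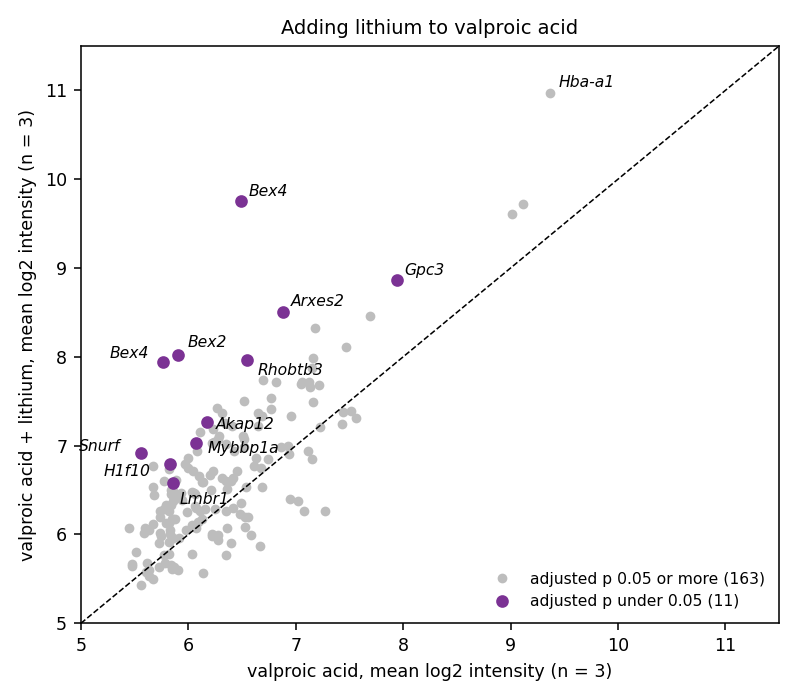
Mean log2 intensity (n = 3) with both agents (vertical axis) against valproic acid alone (horizontal axis) for the 174 probes. Purple points are the 11 probes with adjusted p under 0.05 and grey points the other 163; the dashed line marks equal levels, and the brighter Bex4 probe lies farthest above it at 6.49 and 9.75.

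No member was lower with both agents by the test. The largest negative values were those of Ly86 (-1.0, limma adjusted p 0.15), a partner of the Toll-like receptor relative RP105, and of the complement factor Cfd (-0.82, limma adjusted p 0.175). Myosin light chain kinase, Mylk, gave the nearest call: one probe measured 6.91, 6.63 and 6.48 with valproic acid and 5.86, 5.77 and 5.97 with both, without overlap (-0.81 ± 0.21, limma adjusted p 0.0611). Its other probe differed by -0.59 (limma adjusted p 0.435). The pacemaker channel Hcn2 likewise had all arrays with both agents (5.74, 5.28 and 5.68) below all with valproic acid (6.05, 6.25 and 6.11), with a limma adjusted p of 0.117. Mylk and Hcn2 were lower, with Ly86 and Cfd, when the set of arrays was a block.

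Snurf, whose transcript shares the imprinted Snrpn locus, measured 4.47, 4.51 and 4.61 with growth factors only and 4.60, 4.67 and 4.48 with lithium alone. With valproic acid it measured 5.68, 5.54 and 5.45 and with both agents 6.76, 7.26 and 6.74, a rise of 1.36 ± 0.18, or 2.57-fold (limma adjusted p 0.0011, kept by 23 of 24 alternatives). A second Snurf probe was undetected on every array. Mkrn3, a makorin ubiquitin ligase imprinted in the same region, was also a member, at 4.84, 4.86, 5.99 and 6.25. Ndn, another imprinted gene of that region and no member, averaged 4.73, 4.83, 5.78 and 6.87, with 2 of 3 valproic acid arrays detected. The differences of both agents over valproic acid did not pass for Mkrn3 (0.26, limma adjusted p 0.703) or Ndn (1.1, limma adjusted p 0.112). Magel2 of the same region was undetected on all arrays with valproic acid. Of 4 probes of Ube3a, also of that region, 2 were undetected on every array and the other 2 differed by 0.13 and -0.12 with valproic acid (limma adjusted p 0.732 and 0.941). These neighbours were looked up after the values of Snurf and Mkrn3 were seen.

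Transcription regulators of blood cells made up 10 probes, among them the homeobox factors Hoxa5 and Hoxa9 and their partner Pbx3, which mark early progenitors. Hoxa5 measured 5.16, 4.60 and 4.80 with growth factors only, 4.83, 4.58 and 4.74 with lithium alone, 7.46, 6.57 and 6.85 with valproic acid and 6.55, 7.64 and 7.79 with both. Hoxa9 averaged 4.58, 4.51, 6.21 and 6.50, and Pbx3 5.02, 4.98, 5.63 and 6.05. Lithium alone was not detected by any of these 3 member probes, and adding it to valproic acid gave differences of 0.37, 0.29 and 0.42 that did not pass (limma adjusted p 0.661, 0.617 and 0.325). A second Pbx3 probe outside the set did rise with both agents over valproic acid, by 0.95 (limma adjusted p 0.0248), and of the other Hoxa9 probes 1 rose with valproic acid and 1 was undetected everywhere. That Pbx3 probe and the Hoxa9 probe that rose were each detected on 1 lithium array.

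The progenitor factor Myb averaged 4.70 with growth factors only, 5.11 with lithium alone, 6.51 with valproic acid and 7.11 with both. A second Myb probe outside the set differed from growth factors only by 0.50 with valproic acid (limma adjusted p 0.155). With both agents that probe differed by 1.14 (limma adjusted p 0.00213). Bcl11a, a repressor of fetal globin genes that B cell and stem cell development require, measured 5.28, 4.95 and 5.26, then 5.55, 5.11 and 5.89 with lithium, 6.78, 7.32 and 7.27 with valproic acid and 7.76, 7.65 and 7.74 with both. The polycomb subunit Phc1 averaged 5.12, 5.27, 6.74 and 6.85, and Nkx2-3, a homeobox factor, 4.96, 5.25, 5.84 and 6.79. Another Phc1 probe was detected on all growth factor arrays, at 6.69, and read 8.65 with valproic acid, so the gene was not silent by every probe. All 10 member probes of these regulators had a higher mean with both agents than with valproic acid, at a median difference of 0.44, and none passed the test. On the stem and progenitor list of 35 symbols, 17 other probes could be tested. Of these, 9 rose with valproic acid and none fell, against 13.2% and 11.9% of all tested probes. The median difference of the 17 was 0.85 against 0.05 over all tested probes. Those that rose include Hoxa7 (5.17 to 9.29, limma adjusted p 1.8e-07), Gata2 (8.12 to 10.14, limma adjusted p 2.21e-05) and Cd34 (5.68 to 8.03, limma adjusted p 0.00277).

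Red cell genes were few in the set. Besides Hba-a1 it held Klf1, the erythroid Krüppel-like factor, and Tfr2, a sensor of iron-loaded transferrin. Klf1 measured 5.28, 5.15 and 5.04 with growth factors only, 5.37, 5.89 and 5.43 with lithium alone, 5.26, 5.80 and 6.17 with valproic acid and 6.47, 5.88 and 6.27 with both, so that its groups overlapped. Tfr2 averaged 5.00, 4.74, 6.31 and 6.64. The summed intensity of the erythroid list, 30 probes, was 2365 to 2967 with growth factors only, 3288 to 4327 with lithium, 8764 to 10542 with valproic acid and 9283 to 11077 with both. Of 10 other tested probes 4 rose with valproic acid and none fell, against 13.2% and 11.9% of all tested probes. Alas2, Epb42 and Ank1 stayed undetected in all groups. The part of a changed share of red cell precursors in the Hba-a1 values was not tested.

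Probes known from nerve cells and synapses numbered 12 in 11 genes. Nlgn2, a postsynaptic adhesion protein, measured 4.99, 5.22 and 5.21 with growth factors only, 5.28, 6.14 and 5.36 with lithium alone, 6.74, 6.29 and 6.19 with valproic acid and 7.35, 7.00 and 7.32 with both. Tmem108, a transmembrane protein of neurons, averaged 5.05, 6.24, 7.15 and 7.87 and was the only one of the 12 detected on all lithium arrays. The neuronal enolase Eno2 averaged 4.66, 5.16, 6.10 and 6.66, the vesicle protein Sv2a 5.03, 5.17, 5.82 and 5.92 and the vesicle priming factor Unc13b 4.74, 4.90, 6.42 and 6.64. Of the neuronal and synaptic list of 61 symbols, 27 other probes could be tested; 6 rose with valproic acid and none fell, against 13.2% and 11.9% of all tested probes, and the median difference was 0.18 against 0.05. The 6 were led by Thy1 (8.19 to 12.28, limma adjusted p 1.57e-07) and Tubb2b (6.77 to 10.21, limma adjusted p 8.58e-06). Thy1 is also carried by stem cells and T cells, and 63 of that list's 95 probes were detected on no valproic acid array.

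Among targets often named for deacetylase inhibitors, H1f10 was the histone in the list and Cdkn2a, which encodes the inhibitors p16 and p19Arf, the cell cycle inhibitor. Cdkn2a averaged 4.75, 4.73, 5.51 and 5.80, at least 1.08-fold above growth factors only with valproic acid. A second Cdkn2a probe outside the set read 5.16, 5.48, 5.52 and 5.16, with a difference of 0.36 with valproic acid that did not pass (limma adjusted p 0.312). H4f16, a histone H4 gene outside that list, averaged 4.93, 5.52, 5.74 and 6.02. Of 15 other tested histone probes 5 rose with valproic acid and none fell. With both agents over valproic acid none of these 15 was higher and 4 were lower (limma, adjusted p under 0.05). The shares of all tested probes in that comparison were 0.752% and 2.15%. Of 9 other tested probes of cyclin-dependent kinase inhibitors 2 rose and 1 fell with valproic acid, against 13.2% and 11.9% of all tested probes. So few probes cannot set the list apart from these shares, and their median difference was -0.1. Among those that rose, Cdkn1c (p57) went from 5.03 to 7.70 (limma adjusted p 0.000101).

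Cilium and centriole genes contributed 8 probes of 7 genes. Beside B9d1 they were Nphp4 at 5.32, 5.25, 7.23 and 7.21, Bbs12, Ift81, Rpgrip1l and Wdpcp, and 2 probes of Cep97, which caps centrioles and blocks cilium growth. Cep97 also had probes outside the set, each detected on 1 growth factor array. One averaged 5.22, 5.00, 6.70 and 6.88 in the 4 groups, and another was undetected on every array with valproic acid. The brighter Cep97 probe of the set measured 5.28, 4.75 and 4.83 with growth factors only, 5.10, 4.92 and 5.37 with lithium alone, 7.47, 6.34 and 7.01 with valproic acid and 6.24, 7.30 and 7.19 with both. None of the 8 member probes was on all lithium arrays, and their means with both agents lay above valproic acid in 5 and below in 3. Of 2 further Ift81 probes, 1 read 7.51 in the growth factor group and 7.69 under valproic acid, and the other rose from 6.20 to 7.33 (limma adjusted p 0.00171). This grouping, like those of muscle and transport genes that follow, was made after the values were seen.

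Muscle genes contributed Mylk, the myosin light chains Myl4 and Myl6b, the LIM protein Csrp3 and the acetylcholine receptor subunit Chrnb1, none of them on all lithium arrays. Transport and use of glutamine and neutral amino acids were represented by Slc1a4 (4.98, 5.65, 6.77 and 7.54), Slc1a5 (4.79, 5.64, 6.03 and 6.48) and the liver-type glutaminase Gls2, whose 2 probes averaged 6.45 and 5.97 with valproic acid and 6.72 and 6.79 with both. Signalling genes included Nrarp, a feedback inhibitor of Notch (4.81, 4.91, 7.05 and 7.69), and the ephrin receptor Ephb2 (4.80, 5.11, 6.86 and 6.98) with its ligand class member Efnb1 (4.98, 5.33, 5.61 and 5.58). Cyp27a1, the sterol 27-hydroxylase of bile acid synthesis, averaged 4.96, 4.95, 7.22 and 7.68.

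Both probes of the 7 genes with 2 probes in the set entered by the same rule on the same arrays, so that their likeness in the groups of the rule was set by it. Tmem98 gave 6.36 and 6.49 with valproic acid and 6.51 and 6.36 with both agents, none above 5.16 on any lithium array. The ubiquitin ligase Rnf125 gave 6.11 and 6.06 with valproic acid, but with lithium alone one probe was detected on 1 array and the other on all 3 (means 5.15 and 5.84). Another Rnf125 probe, outside the set and detected on 2 growth factor arrays, read 5.51, 5.48, 5.24 and 4.85 in the 4 groups. Gpc3, Bex4, Gls2, Mylk and Cep97 are described above; in Gls2 the difference between both agents and valproic acid was 0.27 by one probe and 0.82 by the other, neither passing.

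Markers of other blood cells were present as single probes. Lck, a kinase of T cells, measured 4.82, 4.89 and 5.06 with growth factors only, 5.10, 5.49 and 5.43 with lithium alone, 7.29, 7.06 and 7.04 with valproic acid and 7.19, 8.10 and 7.71 with both. The T cell receptor genes Cd3e and Cd3g were undetected on all arrays with valproic acid, and Cd3d fell. The summed intensity of the T and NK cell list was 1981 to 2373 in the growth factor group and 7266 to 10287 under valproic acid. Of its 9 other tested probes 3 rose, Nkg7 and Thy1 among them, and 5 fell, against 13.2% and 11.9% of all tested probes. Without Thy1 that list summed to 1717 to 2120 and 3203 to 4418, and the median difference of its 9 other probes was -0.87. Prg3, a granule protein of eosinophils, measured 7.58, 6.56 and 6.90 with valproic acid and 5.42, 6.54 and 7.20 with both. The eosinophil list summed to 10876 to 12278, 4323 to 4419, 9030 to 10137 and 2303 to 4874 across the 4 groups. Ms4a2, the beta chain of the mast cell IgE receptor, averaged 4.98, 5.34, 5.98 and 6.05. The mast cell and basophil list summed to 5647 to 9966, 10132 to 13230, 11030 to 12862 and 8430 to 14569 across the 4 groups. Lithium alone thus overlapped with valproic acid. Of that list's 15 other tested probes, 2 rose and 1 fell with valproic acid, near the shares of all tested probes.

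Summed levels of the mature myeloid lists stand here beside the set. Over all tested probes 13.2% rose and 11.9% fell with valproic acid (limma, adjusted p under 0.05). Dendritic cell and MHC class II genes summed to 77413 to 80675 with growth factors only, 36424 to 50673 with lithium, 9801 to 12425 with valproic acid and 4072 to 4424 with both, with 13 of 15 tested probes falling with valproic acid and no member among them. Monocyte and macrophage genes summed to 107454 to 123907, 98656 to 111972, 36997 to 57177 and 17391 to 25864, with 16 of 24 falling. The neutrophil list summed to 143089 to 145842, 197295 to 204387, 124501 to 141081 and 135747 to 144407, highest with lithium alone, and of its 26 tested probes 7 rose and 16 fell with valproic acid. The part of such a shift in cell types in the members' levels was not tested.

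Neighbouring classes of probes put the set in proportion. Another 44 probes gained detection on all valproic acid arrays but not on all arrays with both agents, and 165 on all arrays with both agents but not on all with valproic acid. Their median levels were 5.73 with valproic acid and 5.48 with both for the first, and 5.34 and 5.87 for the second, against 6.18 and 6.50 for the set. Each class had to miss detection in a group where members had to be detected on all arrays. Lower levels there follow from the rule. Lithium alone was detected on all 3 arrays for 4 of the 44 (9.09%) and 8 of the 165 (4.85%), against 19% of the set. The part of the classes' dimmer probes in these shares was not tested. By number of lithium arrays that detected a member, from 0 to 3, the median difference of both agents over valproic acid was 0.32, 0.26, 0.33 and 0.62, and the 11 calls fell 8, 0, 0 and 3.

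By chromosome, the set was spread widely, with 19 probes each on chromosomes 4 and 11. The X chromosome held 11 of the 171 mapped members (6.43%, against 3.70% of all mapped probes) and 5 of the 11 probes higher with both agents than with valproic acid, namely the 4 of Bex4, Bex2 and Arxes2 and 1 of Gpc3. Over the whole array 8 of 391 tested X probes were higher in that comparison. The other X members were Uba1, Armcx1, Tspan7, Maob and Efnb1 and the second Gpc3 probe.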

How the data were processed

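RNA of 12 cultures was hybridised to Illumina MouseRef-8 version 2 arrays, 1 per culture. The deposited table gave bead intensities, not normalized between arrays, and a detection p-value per probe and array. GenomeStudio is named in the submitters' processing notes, and the probe profile was written by version 1.1.1, per the file headers. The authors' deposited log2 values served as an alternative. Each of the 25697 probes was linked to a gene name of the deposited probe profile by equal intensity (largest difference 0.05, next probe at least 2.82 away); 180 of 192 per-array columns of that profile were not used. Names were updated through RefSeq (152 members by symbol, 19 by synonym, 3 unmatched); the files name no genome build.

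Intensities were background corrected from detection p-values with an offset of 16, quantile normalized and put on the log2 scale (neqc, limma 3.58.1, R 4.3.3). The 12907 probes with detection p under 0.05 on at least 3 of 12 arrays were tested with lmFit and eBayes (8 residual degrees of freedom, two-sided), with Benjamini-Hochberg adjustment over all of them. All 174 members passed this filter because the rule requires it. An alternative count (kept by so many of 24) is the number of alternative settings at adjusted p under 0.05. Members, gene lists and groupings were chosen with earlier results of these data known. Named members were the 10 highest, the 8 with the largest lithium difference among those on all lithium arrays, the 6 largest calls, up to 4 per gene list, genes with 2 probes and the 3 nearest to the limit on each side; others were chosen after their values were seen. List sums add the normalized values of all probes of a list per array, taken back from the log2 to the linear scale. The number of arrays limits precision.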

Additional observations from a re-analysis of the deposited data

How the results depend on the processing

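The planned source of gene names from a probe annotation table was not run, since none was used here. The set numbered 152 probes at a detection limit of 0.01. It numbered 181 to 400 without single arrays, 521 in the larger set of arrays alone and 624 in the smaller, an alternative chosen after seeing the data. At a lithium detection limit of 0.01, 8 members were on all lithium arrays and 135 on none, against 33 and 86. Every median difference of the members stayed positive in the alternatives run, and sizes depended on the background. Over growth factors only, the median with valproic acid was 1.27, and 0.49 in the deposited log2 values, 0.50 without background correction, 0.75 with an offset of 50 and 1.51 in the smaller set. With both agents it was 1.63, and 0.66, 0.66 and 0.99 in the first 3 of these and 1.43 in the larger set. With lithium it was 0.30, and 0.12, 0.13 and 0.14. For both agents over valproic acid it was 0.36, and 0.16 in the deposited values and without background correction. Members higher with both agents than with valproic acid numbered 11, and 5 in a fit of these 2 groups alone, 18 with median scaling, 43 with the set of arrays as a block, 1 in the smaller set and 5 to 24 without single arrays. Lower members numbered 0, and 4 with that block, 1 in the larger set (Prg3) and 0 to 1 without single arrays: Mylk without growth factors only replicate 1 and Ly86 without replicate 1 of both agents. The causes were not tested. With the replicate block 6 were higher. Replicate numbers do not pair the arrays: same-numbered arrays correlated in their deviations from group means at -0.83 to 0.773. The fit was checked on simulated data. Dim probes limit all of this, since the members' median lay near the detection limit.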
